A study of Mus musculus with 2 samples.

Results

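Mouse genes that carry only a provisional name were followed here: models named Gm and a number, or an identifier ending in Rik. Their transcripts were measured on 2 Affymetrix Clariom D mouse arrays, each summarised to 1 value per transcript cluster, called a row below. A row was a member when the platform annotation gave it exactly 1 symbol, that symbol was a Gm or Rik name, and its log2 signal exceeded the 95th percentile of the negative control rows on at least 1 array. Members were thus chosen by their signal level, which is given as a description only. The limit lay at 5.06 for the circPan3+/+ and 5.56 for the circPan3-/- array. The rule gave 1694 rows, of the 72688 rows of the table, of 30604 rows with 1 symbol and of 10141 rows with a Gm or Rik symbol. They comprised 1645 rows with a Gm name and 49 with a Rik name, and carried 1685 distinct symbols.

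The 2 samples were intestinal stem cells from the small intestine of 8-week-old mice, sorted by flow cytometry for green fluorescent protein. One sample was circPan3+/+;Lgr5GFP-CreERT2 and the other circPan3-/-;Lgr5GFP-CreERT2, so both carried the Lgr5 reporter allele, in which the promoter of the stem cell receptor gene Lgr5 drives GFP and an inducible Cre recombinase. CircPan3 is a circular RNA made from the Pan3 gene. The series asked how RNA profiles of stem cells with and without this circle differ. There was 1 array per genotype, so no value below has an error, an SD or a p-value, and each comparison is between 2 arrays and not between genotypes. The labels do not say if each sample pooled several mice.

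A Gm name is given to a gene model predicted from sequence, and a Rik name to a model that started from a cloned mouse cDNA of the RIKEN collection. Both stay in use until the gene receives a proper name, so they join very different things: coding genes without a settled name, long noncoding RNAs, processed pseudogenes, and copies of small RNA genes. A processed pseudogene is a copy of a messenger RNA inserted back into the genome, and an array probe inside it may also bind the messenger RNA of its source gene. Small nuclear RNAs work in the spliceosome, and small nucleolar RNAs guide chemical modification of other RNAs. Small nuclear RNAs occur in many near-identical genomic copies.

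The labelled cell type was checked against marker genes. Of the 8 stem cell markers, Lgr5 (10.91 on the circPan3+/+ and 7.02 on the circPan3-/- array, in log2 signal) and Olfm4 (11.53 and 10.28) had lower values on the circPan3-/- array, and the other 6 had higher values. Among these were Slc12a2 (5.47 and 8.39) and Sox9 (5.07 and 6.45), while Ascl2 and Smoc2 were under the limit on each array. The median difference of the 8 was 1.55 and their summed level, as log2 of the summed linear signals, was 12.30 and 10.99. All 6 epithelial markers were above the limit on both arrays. The 8 myeloid markers were all above the limit on the circPan3+/+ array but only Lyz2 on the circPan3-/- array, and their summed level was 11.12 and 10.61. For the Paneth cell list the summed level was 10.64 and 12.62, and for the goblet cell list 10.08 and 12.21. In bulk samples, fewer cells of a type and less RNA per cell cannot be told apart. The part of these markers in the results below was not tested, apart from values given beside them. Over the 4602 single-symbol rows above the limit on both arrays, the median difference, taken throughout as circPan3-/- minus circPan3+/+ in log2 units, was 0.42, and the members' differences are read against it. Of the members, 17.5% held a circPan3+/+ value that another row also held and 7.5% such a circPan3-/- value, so the 2 columns differed in how their values repeat.

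Promoters are shown for 4 of the 7 members now named as alpha-defensin genes, which lay far higher on the circPan3-/- array. Promoter sequences of the other defensin members, Gm15299, Gm15315 and Gm15292, were not available. Also shown are Gm17783, likewise higher on the circPan3-/- array but under the circPan3+/+ limit, and Gm10639, the coding member furthest in the opposite direction. The fold of Gm17783 is therefore a bound. Of 2 sequences available for Gm17783, 1 is shown. Each sequence gives the 250 bases before the gene's start in RefSeq (GRCm38.p6), written 5′ to 3′ on the gene's own strand. Capitals mark TATAAA, the core of a TATA box, and CTTTGAT, a core motif of the TCF proteins that act at the end of the Wnt pathway, on either strand (TTTATA and ATCAAAG in the reverse direction); the 2 motifs did not overlap.
Gm15293, now Defa41 (chr8:21201354-21201603, plus strand): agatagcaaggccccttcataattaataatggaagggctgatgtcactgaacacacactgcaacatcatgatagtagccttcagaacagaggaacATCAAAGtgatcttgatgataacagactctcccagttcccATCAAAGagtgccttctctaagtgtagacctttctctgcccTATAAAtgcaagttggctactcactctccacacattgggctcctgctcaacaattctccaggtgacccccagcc
Gm10104, now Defa35 (chr8:21064788-21065037, plus strand): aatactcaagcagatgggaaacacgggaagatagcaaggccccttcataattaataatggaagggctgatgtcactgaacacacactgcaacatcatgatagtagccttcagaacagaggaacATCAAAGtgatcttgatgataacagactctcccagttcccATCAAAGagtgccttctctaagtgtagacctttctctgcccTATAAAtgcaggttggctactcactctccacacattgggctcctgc
Gm15284, now Defa30 (chr8:21134400-21134649, plus strand): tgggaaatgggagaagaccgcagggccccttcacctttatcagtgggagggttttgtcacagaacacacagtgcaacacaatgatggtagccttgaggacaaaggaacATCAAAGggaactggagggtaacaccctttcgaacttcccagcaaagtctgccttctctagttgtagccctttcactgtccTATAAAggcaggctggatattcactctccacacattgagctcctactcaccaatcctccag
Gm6696, now Defa28 (chr8:21582777-21583026, plus strand): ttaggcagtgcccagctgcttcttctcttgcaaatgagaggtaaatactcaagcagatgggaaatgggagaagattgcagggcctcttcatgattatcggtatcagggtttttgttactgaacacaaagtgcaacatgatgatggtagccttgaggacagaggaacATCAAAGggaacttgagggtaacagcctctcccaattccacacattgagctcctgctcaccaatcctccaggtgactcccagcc
Gm17783 (chr16:45532051-45532300, minus strand): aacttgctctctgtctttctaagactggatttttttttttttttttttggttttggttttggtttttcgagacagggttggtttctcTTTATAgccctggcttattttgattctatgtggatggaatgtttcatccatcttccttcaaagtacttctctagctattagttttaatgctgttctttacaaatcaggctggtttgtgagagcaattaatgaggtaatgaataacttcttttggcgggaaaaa
Gm10639 (chr9:78289678-78289927, plus strand): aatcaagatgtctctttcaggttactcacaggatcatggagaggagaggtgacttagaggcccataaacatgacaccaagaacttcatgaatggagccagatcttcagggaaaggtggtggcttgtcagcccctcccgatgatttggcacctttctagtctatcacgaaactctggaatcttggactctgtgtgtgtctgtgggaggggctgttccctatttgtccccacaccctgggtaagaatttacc
CTTTGAT was found in all 4 defensin windows shown and TATAAA in 3 of the 4. TATAAA began 74 bases before the start in Gm15293, 46 in Gm10104 and 61 in Gm15284. Whether it acts as a TATA box there was not tested. Over 32851 windows of the same length, CTTTGAT stood in 3.21% and TATAAA in 12.4%. The defensin windows are related: in a global alignment that of Gm15293 was 79.5% identical to that of Gm10104, 71.2% to that of Gm15284 and 56.6% to that of Gm6696, whereas it was 44.4% identical to that of Gm17783 and 47.9% to that of Gm10639. Their motifs are therefore not separate observations. Neither motif was found in the window of Gm10639, and that of Gm17783 held TATAAA on the opposite strand only.

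Most bright provisional models were not coding genes. By the RefSeq gene type, 1062 of the 1694 rows (62.7%) were pseudogenes and 54 transcribed pseudogenes, 318 (18.8%) small nuclear RNAs, 128 small nucleolar RNAs, 89 protein coding, 22 long noncoding RNAs, 10 guide RNAs (RefSeq's type for small RNAs that direct modification of other RNAs) and 7 ribosomal RNAs. The remaining rows were 2 miscellaneous RNAs, 1 microRNA and 1 immunoglobulin V segment. The 49 Rik rows held 35 coding genes, 8 long noncoding RNAs, 5 transcribed pseudogenes and 1 miscellaneous RNA, so every row of the 5 small RNA types (small nuclear, small nucleolar, ribosomal, guide and microRNA) had a Gm name. By the rule itself, 20.8% of 7897 Gm rows and 2.18% of 2244 Rik rows were members, and 22.6% of rows with other symbols passed the same limit. Of the members, 90 carry a current RefSeq symbol that is no longer a Gm or Rik name.

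The limit was passed on both arrays by 1393 members, on the circPan3+/+ array alone by 245 and on the circPan3-/- array alone by 56. Rows with other symbols split into 3209, 823 and 586. A row above the limit on the circPan3-/- array only had to be higher there. The circPan3+/+ limit is the lower one, so a row can pass on that array only without being lower on the other. Gm10362, for example, did so with 5.06 and 5.32. Rows of both groups are kept apart and support nothing. The members just inside the limit were Gm10362, with 5.061, and Gm24517, with 5.064, on the circPan3+/+ array. Just outside lay Gm13171 with 5.058 and Gm13137 with 5.056.

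**Figure D1:**
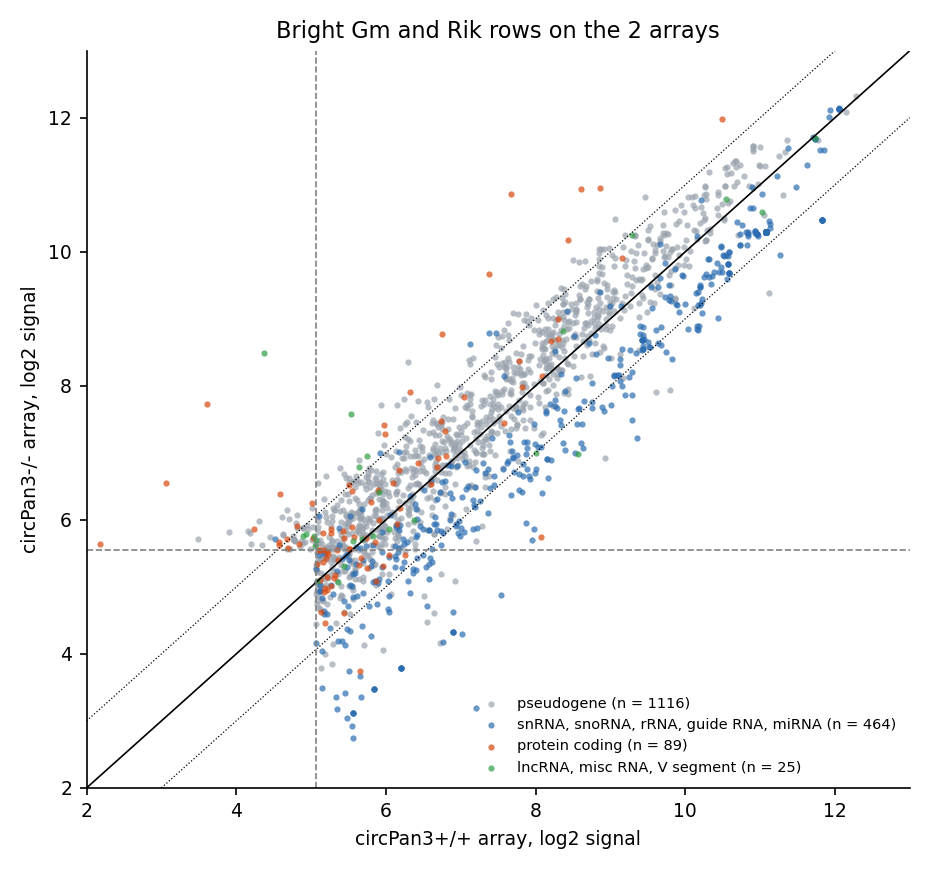
Log2 signal of the 1694 member rows on the circPan3+/+ array (x axis) and the circPan3-/- array (y axis), 1 point per row, coloured by RefSeq gene type; dashed lines are the control limits (5.06 and 5.56), the solid line is equality and dotted lines are 2-fold differences. Small RNA rows lie mostly below the line of equality, and a few coding rows lie far above it.

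Of the 1393 members above both limits, 82 (5.89%) were at least 2-fold higher on the circPan3-/- array, against a background of 10.4% over all single-symbol rows, and 77 (5.53%) were at least 2-fold lower, against 4.74%. In the values as deposited, the share of higher members thus lay below the background and that of lower members near it. With bounds for rows above the limit on 1 array, measured to the other array's limit, the counts over all 1694 members were 90 higher (5.31%, background 9.84%) and 93 lower (5.49%, background 4.48%). The split depends on the scaling: of the calls above both limits 51.6% were higher as deposited, but 5.98% after centring on the median of all single-symbol rows, 10.3% after loess on mean level and 17.3% after quantile normalization. In these 3 scalings 1.29%, 1.87% and 2.3% of members were higher (background 2.91%, 3.82% and 4.5%). Lower were 20.3%, 16.2% and 11.0% (background 10.4%, 8.91% and 7.13%), so the share of lower members then lay above the background. After centring, the lower members include 47 rows that hold one and the same pair of values, described below. The median member difference was 0.15, with quartiles of -0.38 and 0.53, and it turned to -0.27, -0.17 and -0.10 under the same 3 scalings.

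The 2 kinds of name differed in their medians, and so did the classes they hold. Over rows above both limits the median difference was 0.15 for 1374 Gm rows and 0.46 for 19 Rik rows, while it was 0.49 for 3209 rows with other symbols; the Gm median turned negative under centring (-0.27), loess (-0.18) and quantile normalization (-0.11), whereas the Rik median stayed above 0 (0.04, 0.08 and 0.15). Rik exceeded Gm by 0.31. Without the small RNA rows, which Rik names lack, the Gm median was 0.32 over 1012 rows and the gap was 0.14. The gap was 0.12 with the limit at the 99th percentile, where 1 Rik row was left, and 0.024 over rows whose circPan3+/+ value no other row holds. Within protein coding rows, the medians were 0.45 for 35 Gm and 0.54 for 12 Rik rows, beside 0.53 for 2587 coding rows with other symbols. No test of the gap between Gm and Rik names could be made with 1 array per genotype.

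**Figure D2:**
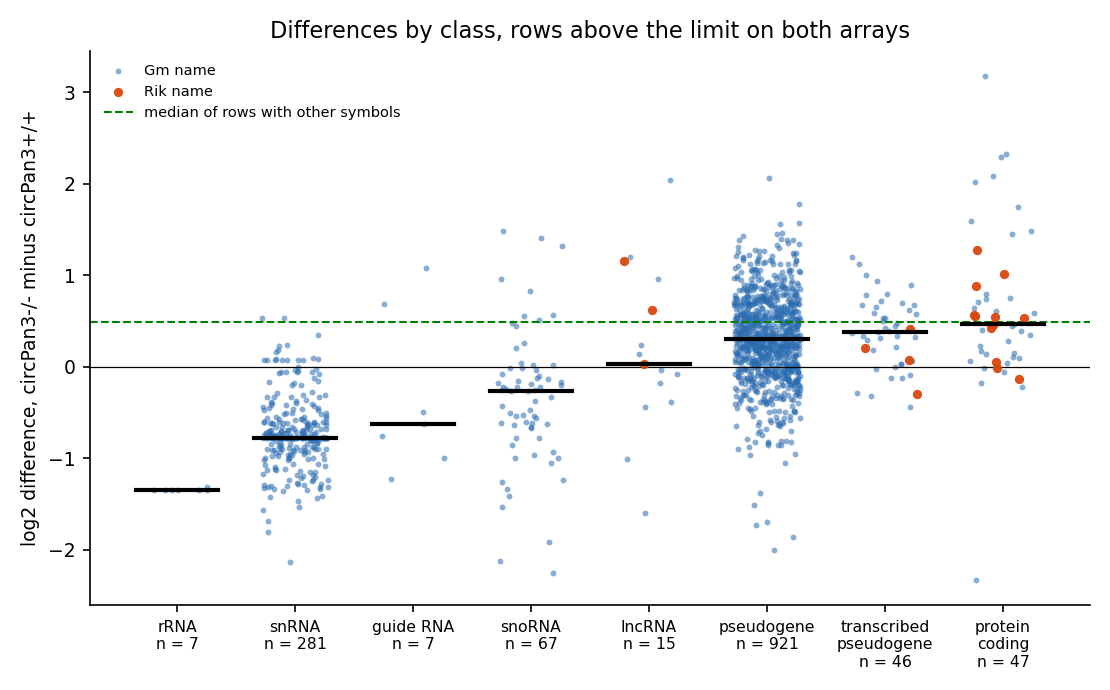
Log2 difference (circPan3-/- minus circPan3+/+, y axis) of members above the limit on both arrays, by RefSeq gene type (x axis, with the number of rows); points are rows, black bars medians, and the green dashed line is the median of rows with other symbols (0.49). The small RNA types have medians below 0, from -0.26 for small nucleolar RNAs to -1.34 for ribosomal RNAs, and of the 8 types drawn coding rows have the highest median, 0.47.

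Small RNA models held most of the lower rows. Of the 362 small RNA members above both limits, 67 were at least 2-fold lower (18.5%) and 4 were higher (1.1%), with a median of -0.75, which stayed negative after centring (-1.17), loess (-1.0) and quantile normalization (-0.79). The other 1031 members held 78 of the 82 higher rows (7.57% of them, background 10.4%) and 10 of the 77 lower rows (0.97%, background 4.74%). That background includes small RNA rows. Over 3008 rows with other symbols that are not small RNAs, 12.9% were higher and 1.66% lower. For the 1031 members the balance turned to 17 higher and 39 lower after centring and 23 and 29 after loess. It was 29 and 27 after quantile normalization. Small RNA rows with other symbols had a median of -0.74 over 201 rows, of which 45.3% were at least 2-fold lower. Those 201 rows held only 136 distinct pairs of values, so they are not all separate readings. By contrast with the members, small nuclear RNAs with other symbols had a median of 0.08 over 24 rows, which held 18 distinct pairs. This median was -0.33 after centring, -0.10 after loess and 0.10 after quantile normalization. The type with the most rows was small nuclear RNA, with a median of -0.78 over 281 rows, of which 50 were at least 2-fold lower and none (0) higher. Since this split was made after the values were seen, it is a description.

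Small nuclear RNA members differed by the length of their RefSeq model, a grouping also made after the values were seen. Lengths held by at least 10 rows are given. The 207 rows of 107 bases, the usual length of the spliceosomal U6 RNA, had a median difference of -0.78, and 1 of them was above 0. The 10 rows of 191 bases, a length of U2 RNA, had a median of -0.94. By contrast the 18 rows of 164 bases, the length of U1 RNA, had a median of 0.01, which became -0.41, -0.28 and -0.14 under centring, loess and quantile normalization and so lay above the other lengths under each. The files do not name the family of these models.

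Many of these rows are not separate readings. Of the rows of 107 bases, 47 held one and the same pair of values, 11.08 on the circPan3+/+ and 10.30 on the circPan3-/- array, which was also the pair of one of the 2 rows named Rnu6, the U6 gene. Another Rnu6 row had 7.89 and 5.57. Likewise 6 of the 7 ribosomal RNA members shared the pair 11.82 and 10.48 (difference -1.34), which a row named Rn5s, the 5S ribosomal RNA gene, also held. In the opposite sense, 5 rows of 164 bases shared 12.05 and 12.13. In all, 101 member rows fell into 22 shared pairs, so their counts are counts of models and not of independent measurements. The pair held by 47 rows, with a difference of -0.78, was short of 2-fold as deposited. It was past 2-fold after centring, so these rows entered the lower count together. After loess the median of the rows of 107 bases was -1.002, close to the 2-fold threshold.

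Single small RNA models lay further apart. Gm23136, a small nucleolar RNA model, had 7.95 on the circPan3+/+ and 5.70 on the circPan3-/- array, 4.75-fold lower. Gm26440, of the same type, had 7.98 and 5.86, and Gm25776 had 7.87 and 5.96. The small nuclear RNA models Gm25939 (9.35 and 7.22), Gm26316 (9.29 and 7.48) and Gm26178 (8.08 and 6.40) were also lower. All 6 remained more than 2-fold lower under centring, loess and quantile normalization. Of 128 small nucleolar RNA members, 60 were above the limit on the circPan3+/+ array only and 1 on the circPan3-/- array only. Of all 6312 single-symbol rows above the limit on at least 1 array, 1068 and 642 were in these groups. The circPan3+/+ limit is the lower one, so a row can be in the first group without being lower on the circPan3-/- array. Among the small nucleolar RNAs of the first group, Gm25394 had 7.53 and 4.87, at least 3.94-fold lower. Gm25107 there had 7.21 and 3.18, at least 3.15-fold lower. The small nuclear RNA Gm22265, with 7.01 and 4.30, was at least 2.75-fold lower. The 7 guide RNA rows above both limits had a median of -0.63, and 2 of them were above 0. Gm23119 had 5.92 and 7.0, but fell short of 2-fold under centring, loess and quantile normalization. Gm23370 had 6.99 and 5.77, and stayed more than 2-fold lower under each.

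Most small nucleolar RNAs are cut from introns of host genes, so the 2 can be set side by side. For 21 small nucleolar RNA rows lying in a named gene, with both above the limits, the median difference was -0.52 for the small RNA and 0.78 for the gene around it, and 20 of the 21 lay below their gene. Gm23136 lies in Rpl4, a ribosomal protein gene with 10.23 and 11.05, a difference of 0.82 against -2.25. Gm23969 lies in Rpl7a, another ribosomal protein gene, and had 8.15 and 6.91 where Rpl7a had 7.70 and 7.98. Gm26457, in the elongation factor gene Eef1b2, was the one that lay above, with differences of 0.96 and 0.93. For small nuclear RNA rows inside a gene, all 8 lay below it, with medians of -0.78 and 0.64. Strand was not used in these pairs. Small RNA members and rows with other symbols lay apart without any pairing. The upper quartile was -0.02 over all 67 small nucleolar and -0.58 over all 281 small nuclear RNA members above both limits. The lower quartile of the 3209 rows with other symbols was 0.19. The counts below the gene are therefore no result about host genes.

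Pseudogene rows, the largest class, had a median difference of 0.31 over 921 rows. Of these, 61 (6.62%, background 10.4%) were at least 2-fold higher and 7 (0.76%, background 4.74%) lower. Over 243 pseudogene rows with other symbols, transcribed or not, 4.94% were higher and 2.47% lower. Among the 921 members the balance turned with the scaling. The median was -0.11 with 7 higher and 36 lower after centring. It was -0.02 with 13 and 26 after loess, and 0.05 with 19 and 24 after quantile normalization. Transcribed pseudogenes had 0.39 over 46 rows, -0.03 after centring, with 3 higher: Gm6548 (8.01 and 9.21), Gm13363 (7.85 and 8.98) and Gm6568 (5.58 and 6.58). All 3 fell short of 2-fold under centring, loess and quantile normalization. The 2 brightest members of all, Gm10925 with 12.28 and 12.32 and Gm10222 with 12.14 and 12.09, belong to the list of nuclear copies of mitochondrial genes, of whose 7 models 2 were measured, and neither was 2-fold apart. The pseudogenes furthest below were Gm6977, with 8.92 and 6.92, 4.0-fold lower, and Gm15590, with 9.80 and 7.94, 3.64-fold lower.

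Where the current name of a pseudogene, or a synonym of it, gives its source gene, the rows of both could be compared. Over 35 pseudogene rows from 29 genes, all above both limits, 32 had the same sign of difference as the source gene, and the differences had a Pearson r of 0.70 and a Spearman rho of 0.77. This is a description: all points come from the same 2 arrays, most lie above 0, as most single-symbol rows do, and near-identical copies may share probes. Gm12141, now Hspd1-ps3, had 6.29 and 8.36, 4.17-fold higher, and Hspd1, the gene of a mitochondrial chaperone, had 7.04 and 8.60. Gm12355, now Srsf3-ps, had a difference of 1.47 and the splicing factor gene Srsf3 one of 1.41. Gm6274, now Rpl7-ps9, went apart from its source, with -0.68 against 0.26 for Rpl7. By contrast, 148 pseudogene rows and the nearest named gene in the gene order had a Pearson r of -0.04. For 19 coding or long noncoding rows and their nearest genes, 15 in number, r was 0.74, also a description.

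**Figure D3:**
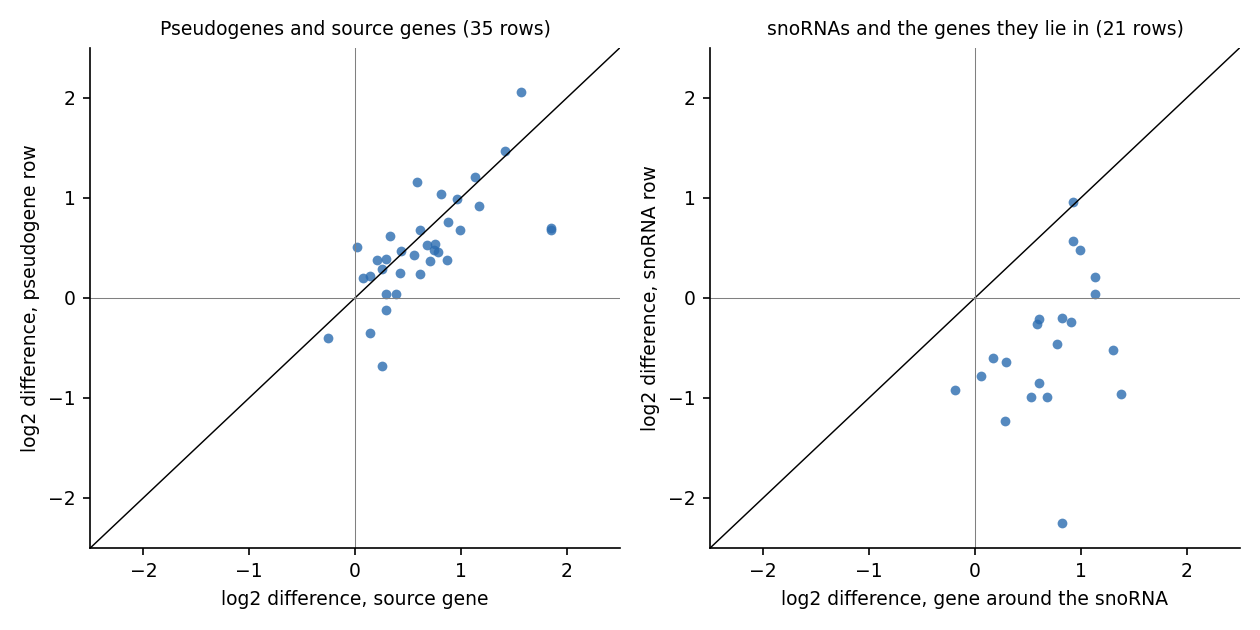
Log2 difference (circPan3-/- minus circPan3+/+) of 35 pseudogene rows against their source genes (left) and of 21 small nucleolar RNA rows against the genes they lie in (right), all above both limits; the diagonal is equality. Pseudogenes lie along the diagonal (Pearson r 0.70), whereas 20 of the 21 small nucleolar RNAs lie below it.

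The coding members furthest up were alpha-defensins, antimicrobial peptides that Paneth cells store in granules at the base of the small intestinal crypt. Gm15293, now Defa41, had 7.68 on the circPan3+/+ and 10.86 on the circPan3-/- array, 9.06-fold higher. Gm10104, now Defa35, had 8.60 and 10.93, 5.02-fold higher. Gm15299, now Defa27, had 7.38 and 9.67, 4.91-fold higher. All 7 defensin-coding members were at least 2-fold higher on the circPan3-/- array.

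Gm15315, now Defa34, had 8.86 and 10.95, and Gm15292, now Defa40, had 8.43 and 10.18. The dimmest, Gm6696, now Defa28, had 6.32 and 7.91. The brightest, Gm15284, now Defa30, had 10.50 and 11.98 and the smallest difference, 1.48. The median of the 7 was 2.08, and stayed above 1.6 under centring (1.67), loess (1.83) and quantile normalization (2.02). Of the 11 listed defensin-like models 6 were measured and all 6 were higher; the background share of higher rows was 10.4%.

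The 9 rows with a Defa symbol that is not provisional had a median of 1.72, and all 9 were at least 2-fold higher as well, of which 6 remained so after centring and 9 after loess or quantile normalization. Defensin genes are near-identical copies and probes may be shared, so these rows are not independent. Other Paneth cell markers were higher too: 5 of the 6 listed were measured and all 5 were at least 2-fold higher, bounds included, with a median difference of 2.69, among them Lyz1, the lysozyme gene (10.15 and 11.63), and Ang4, an antimicrobial ribonuclease gene (6.64 and 10.01). Goblet cell markers were also higher, with all 6 measured of 7 higher and a median of 2.46. None of these markers was at 0, and Pla2g2a alone of the Paneth list lay under the limit on the circPan3+/+ array (4.34). Their part in the defensin result was not tested.

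Without the defensins, the other 40 coding members above both limits had a median difference of 0.41, beside 0.42 for all single-symbol rows. Of the 40, 4 were higher (10.0%, background 10.4%) and 1 lower (2.5%, background 4.74%). That background includes small RNA rows. The 2587 coding rows with other symbols had a median of 0.53, with 13.6% higher and 1.55% lower. Gm1123 had 6.75 and 8.77, 4.06-fold higher, and belongs to the list of epithelial models. Of the 8 models on that list 6 were measured, 4 were members and 2 were above both limits; the other of these, 2210407C18Rik, had 7.57 and 7.44. Gm11545 had 5.97 and 7.42, 2.73-fold higher. The remaining 2 were Rik models, 2310033P09Rik with 5.99 and 7.27, and 1810013L24Rik with 5.51 and 6.52; both fell short of 2-fold under each of the 3 scalings, as did the long noncoding 9130409J20Rik (5.64 and 6.79).

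The 1 lower coding member was Gm10639, with 8.08 and 5.75, 5.03-fold lower and the lowest difference among members above both limits. In the RefSeq gene order it stands between Gsta1 and Gsta2, which encode glutathione S-transferases, with other genes also in between, and next to Omt2a. Enterocyte markers were also lower: 4 of the 6 measured were at least 2-fold lower, bounds included, with a median of -1.29 and a summed level of 11.07 and 10.03. Their part in the value of Gm10639 was not tested. No Rik row above both limits was 2-fold lower (0 of 19), and the lowest was E130201H02Rik, with 5.93 and 5.64.

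**Figure D4:**
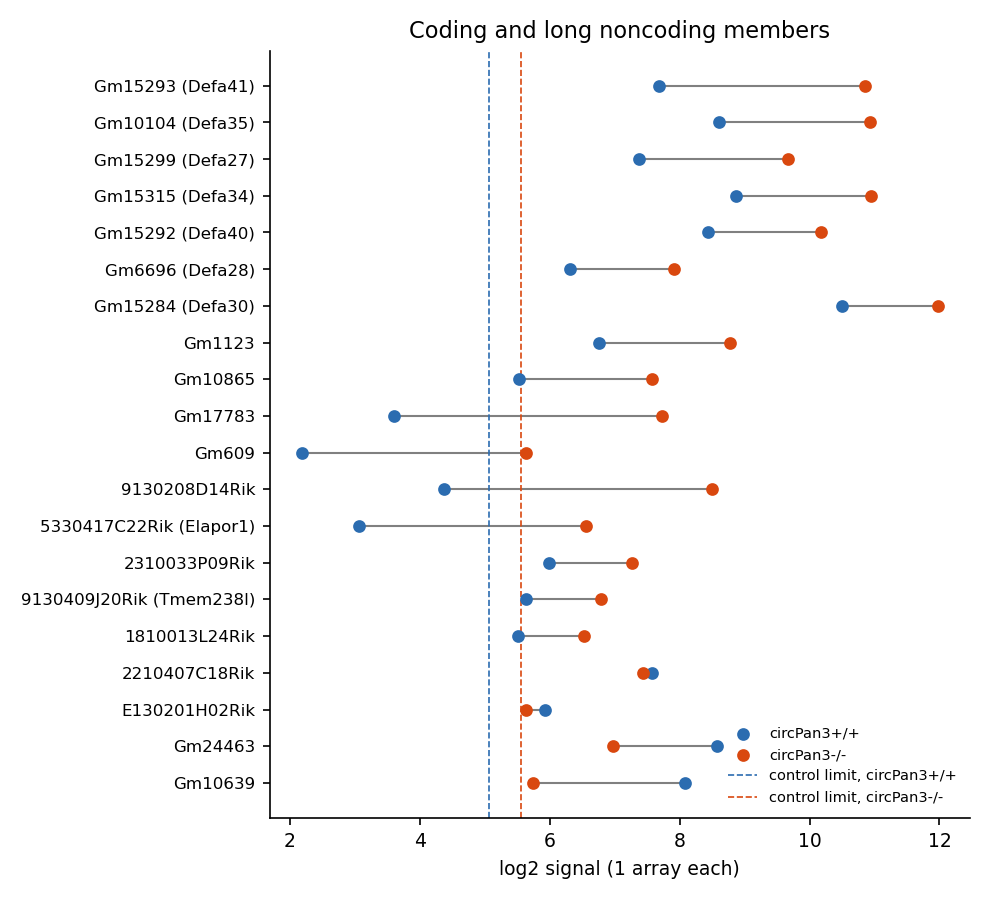
Log2 signal (x axis) on the circPan3+/+ array (blue) and the circPan3-/- array (orange) of 20 coding, noncoding and transcribed pseudogene members, with 1 array each and the control limits dashed. The 7 defensin models at the top are all higher on the circPan3-/- array, and Gm24463 and Gm10639 at the bottom are lower.

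Long noncoding models had a median of 0.03 over 15 rows, -0.25 after loess, with 3 of the 15 higher (background 10.4%) and 2 lower (background 4.74%). Under each of the 3 scalings only Gm10865 remained 2-fold higher. Gm10865, which overlaps the actin-binding protein gene Triobp, had 5.53 and 7.58, 4.13-fold higher, while Triobp itself was under the limit on each array (5.05 and 5.19). Gm3625 had 5.74 and 6.95. Gm24463 had 8.57 and 6.98, 3.02-fold lower, and Gm15384 had 8.01 and 7.0.

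A few models were above the limit on the circPan3-/- array only, and their folds are bounds. The miscellaneous RNA 9130208D14Rik had 4.37 and 8.49, at least 10.8-fold higher, the largest bound among members. Gm17783 had 3.60 and 7.73, at least 6.35-fold higher. 5330417C22Rik, now Elapor1, had 3.07 and 6.55, at least 2.81-fold higher, and Gm11437 had 4.58 and 6.38, at least 2.5-fold higher. Gm609, which lies near Gm17783 in the gene order, had 2.18 and 5.63, but the distance to the limit allows only at least 1.49-fold. By these bounds 3 of 11 such Rik rows and 5 of 45 such Gm rows were at least 2-fold higher, together 14.3% of the 56 members, against 22.4% of all single-symbol rows above the limit on this array only.

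In the opposite group, above the limit on the circPan3+/+ array only, 16 of 226 Gm rows and 0 of 19 Rik rows were at least 2-fold lower by the bound, and for 127 Gm and 16 Rik rows the limit allowed no fold. Together this is 6.53% of the 245 members, near the 6.09% of all single-symbol rows above the limit on this array only. The one interferon-linked model among the members, Gm14446, now Ifit1bl1, belonged here, with 5.65 and 3.74, at least 1.07-fold lower. Of 11 interferon-linked models 7 were measured, and the others of these lay under both limits with mixed directions. Gm12250 (4.29 and 5.20), Gm5431 (3.87 and 4.65) and Gm8995 (3.52 and 4.25) had higher values on the circPan3-/- array. Lower there were 2010002M12Rik (4.84 and 2.47), Gm4951 (3.24 and 2.68) and I830012O16Rik (3.17 and 3.05). The interferon-induced markers Ifit1 (5.26 and 2.45) and Irf7 (6.81 and 4.93) had lower values, like Gm14446, and their part was not tested. Of 4 stefin A models 1 was measured and was no member, and 0 of the 2 models linked to ribosomal RNA were measured.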

How the data were processed

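Per the labels' protocols, total RNA of sorted Lgr5-GFP-positive cells was extracted with Trizol and hybridised, 1 array per genotype. The authors' tools were RMA and Affymetrix Power Tools, per the submitters' processing notes, which give neither version nor genome build. Deposited values are log2 signals, a base inferred from their range.

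Rows were named from the platform annotation where it gave 1 distinct symbol (2146 rows with several were left out), and matched to RefSeq GRCm38.p6 by symbol (1441 members), Entrez identifier (194) or synonym (59). That table has no descriptions, so gene types replaced the planned description classes. Limits were the 95th percentile of 5222 rows named -neg-. Differences were called at 2-fold, a rule of size with no test. A row under its limit on 1 array was given the bound to that limit. Alternatives were centring, loess (span 0.3), quantile normalization, limits at the 90th and 99th percentiles, a 1.5-fold threshold, 1 row per symbol, current names and unshared values. The functions were tested on simulated data. Python 3.11.15, pandas 2.3.3, statsmodels 0.14.6 and biopython 1.88 were used. The number of arrays limits the precision.

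Members and lists were chosen with earlier results of these data known. Named rows are the 4 Gm and 4 Rik rows brightest, highest and lowest in difference, the 3 of each kind with the largest bound in each direction, up to 3 per class (taken by largest difference), the members nearest the limit, and the fixed lists. Chosen after values were seen were the small RNA split and length groups, the pairings, the promoters and motifs, the 9 other Defa rows, the rows named beside a pairing or marker, Gm11545, Gm15384 and Gm609.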

Additional observations from a re-analysis of the deposited data

How the results depend on the processing

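No paired analysis was possible because each genotype has 1 array. The member count of 1694 became 696 with the limit at the 99th percentile and stayed within 1.5 times under the other 4 alternatives. Rows at least 2-fold higher numbered 90 as deposited, 21 centred, 29 after loess, 35 after quantile normalization, 28 with the limit at the 99th percentile and 342 at 1.5-fold. Rows at least 2-fold lower numbered 93 as deposited, 319 centred, 261 after loess, 184 after quantile normalization, 28 with the limit at the 99th percentile and 319 at 1.5-fold. Medians that moved by 0.1 or more, a threshold set here because there are no replicates, were as follows. The Gm median of 0.15 became -0.18 after loess, -0.11 after quantile normalization and -0.27 centred. The Rik median of 0.46 became 0.080, 0.15 and 0.042 in the same order, 0.20 at the 99th percentile, where 1 row was left, and 0.20 over the 11 rows with unshared values. Rik minus Gm, 0.31, became 0.12 at the 99th percentile, 0.024 over unshared values and 0.14 without small RNAs, an alternative chosen after seeing the data. After loess, the class medians were -0.017 for pseudogenes, 0.073 for transcribed pseudogenes, 0.15 for coding rows, -0.25 for long noncoding RNAs, -1.0 for small nuclear RNAs, -0.63 for small nucleolar RNAs, -1.55 for ribosomal RNAs and -0.95 for guide RNAs. At the 99th percentile the coding median was 0.75 over 9 rows and that of guide RNAs 0.69 over 1 row. Fewer rows pass the higher limit by its construction; the cause of the other changes was not tested. Of 61 named differences, 12 changed their side of 2-fold under centring, 12 under loess and 12 under quantile normalization, and no named difference past 2-fold changed sign.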
